A study of Danio rerio with 2 samples.

Results

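Cytochrome P450 (CYP) genes of families 2, 3 and 4 were described in whole zebrafish larvae kept with or without benzo[a]pyrene (BaP). The genes were chosen by name: a symbol starting with cyp, the family digit 2, 3 or 4, and a subfamily letter directly after it, which leaves out families 1, 24, 26, 27 and the other families with 2 digits. Of 22849 gene models, 47 matched, 38 in family 2, 5 in family 3 and 4 in family 4. All 47 reached the minimum of 10 for the sum of both libraries, as did 21764 gene models in all. The gene nearest to that minimum was cyp2x6 with a sum of 12, and no gene that matched by name lay below it.

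Larvae were wild type, of strain AB, and 6 days post fertilization (dpf) old at sampling. The BaP larvae had been kept in 1 µM BaP, a polycyclic aromatic hydrocarbon from incomplete combustion, from 3 to 6 dpf. The control larvae had been kept over the same interval in 0.1% dimethyl sulfoxide (DMSO), a solvent. The treatment label of the BaP larvae names no solvent. Each treatment had 1 library, made from whole-larva RNA of 4 pooled biological replicates, so the treatment difference has no replicate check and no p-value is given. The authors deposited a normalized read count per gene, rounded to a whole number, and all values below are on that scale, DMSO first. The values summed to 13443263 (DMSO) and 11968060 (BaP), about 19804453 and 22000110 estimated reads. In RNA from whole larvae, fewer cells of a type and less RNA per cell cannot be told apart.

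P450 enzymes are heme proteins that insert an oxygen atom into their substrates. Most enzymes of families 2, 3 and 4 sit in the endoplasmic reticulum and receive electrons from NADPH-P450 oxidoreductase, in part through cytochrome b5. In vertebrates, enzymes of families 2 and 3 oxidize drugs, other foreign compounds, steroids and arachidonic acid, mostly in the liver and the intestine, and enzymes of family 4 hydroxylate fatty acids at or near their free end. BaP itself is oxidized chiefly by family 1, whose genes include targets of the aryl hydrocarbon receptor. Fish carry many family 2 genes in tandem arrays, several of them in subfamilies that mammals lack.

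Most of the 47 genes had lower values in the BaP library. A ratio of BaP over DMSO below 1 was found for 37 genes (78.7%, against 56.4% of all tested genes), and above 1 for 10. At least 2-fold lower were 12 genes (25.5%), against 4.36% of all tested genes. At least 2-fold higher were 2 genes (4.26%), close to the 3.75% among all tested genes. With both libraries scaled to the same total, 12 genes were lower and 3 higher, against 2.97% and 5.15% of all tested genes. The median log2 ratio was -0.52, against -0.06 over all tested genes. The summed values were 27874 and 17042, 1.64 times as high with DMSO as with BaP. The 95% interval of the ratio, which covers counting error only, left out equality for all 14 genes past 2-fold, a combined condition that 3.46% of tested genes met downwards and 3.2% upwards. Over the 47 genes, the interval left out equality for 28 below and 5 above a ratio of 1, and it included equality for 14. Over all tested genes it left out equality for 26.2% below and 18.1% above.

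**Figure D1:**
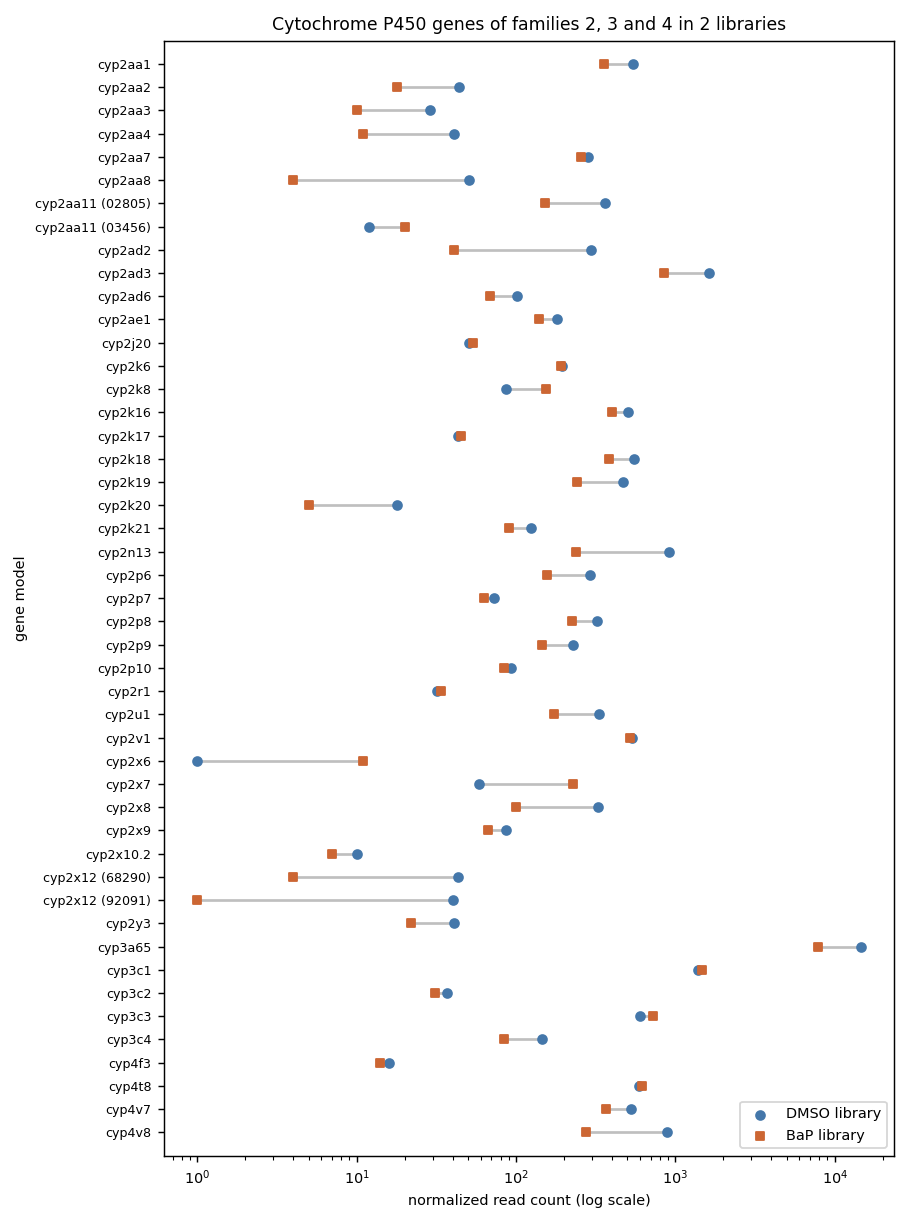
Normalized read count (log scale) of each of the 47 genes in the DMSO library (circles) and the BaP library (squares), joined by a line, by subfamily. The square lies left of the circle for 37 genes; gene models that share a symbol carry the last digits of their Ensembl ID.

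**Figure D2:**
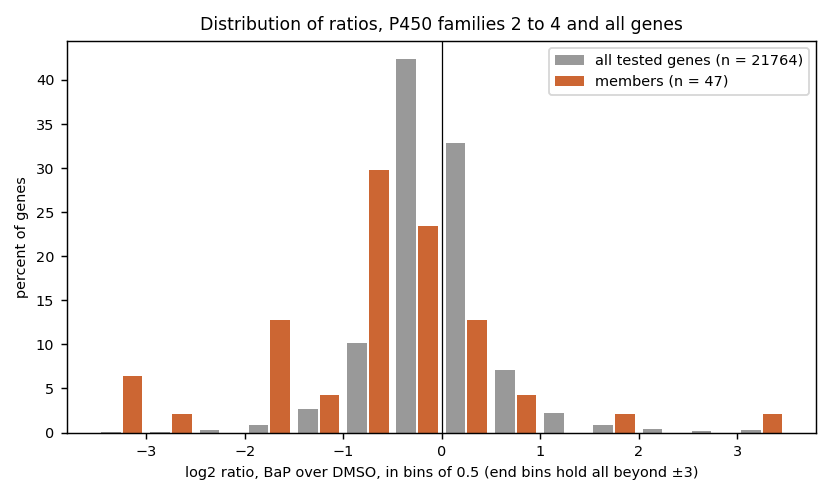
Percent of genes in bins of the log2 ratio of BaP over DMSO, for the 47 P450 genes and all 21764 tested genes. A larger percentage of the P450 genes lies at the left: 12 of 47 are below -1 and 2 above 1.

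The share of lower genes was above that of all tested genes at low and at high values. Among genes whose values summed to under 100, 7 of 15 P450 genes were at least 2-fold lower, against 10.1% of all tested genes in that range. Among genes with a sum of 100 or more it was 5 of 32, against 2.43%. The lower genes nearest to the 2-fold line were cyp2aa11 (ENSDARG00000102805), past it at 2.37-fold lower, and cyp2k19, short of it at 1.94-fold lower.

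Family 3 held the gene with the highest value. The gene cyp3a65 (ENSDARG00000103295, chromosome 1, 59338175 to 59348118, minus strand) belongs to the subfamily of human CYP3A4, the main drug-oxidizing P450 of human liver and intestine. Its normalized read count was 14646 with DMSO and 7896 with BaP, 1.85-fold lower (95% interval 1.82 to 1.89) and short of the 2-fold line. It made up 52.5% (DMSO) and 46.3% (BaP) of the summed value of the 47 genes. Without it the sum of the other 46 genes was 13228 and 9146, 1.45-fold lower. At equal library totals the log2 ratio of cyp3a65 was -0.72 in place of -0.89, which lies outside its counting interval.

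The 4 cyp3c genes, of a subfamily known from fish, lay side by side on chromosome 3 (40936094 to 40976582). Their summed value was nearly equal, with 2169 and 2310 normalized reads, whereas that of cyp3a65 was not. The gene cyp3c1 had 1385 and 1475, and cyp3c3 had 602 and 720, both slightly above equality. At equal library totals their log2 ratios were 0.26 and 0.43, in place of 0.09 and 0.26. The gene cyp3c4 had 145 and 84 (ratio 0.58, 95% interval 0.463 to 0.723), and cyp3c2 had 37 and 31, with an interval that included equality.

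Subfamily cyp2aa, known from fish, had the most genes at least 2-fold lower, 5 of 8 (62.5%, against 4.36% of all tested genes). Its median log2 ratio was -1.27. All 8 lay in an array on chromosome 23 (42292748 to 42493876). The gene cyp2aa8 had 51 and 4 normalized reads, 12.8-fold lower (95% interval 5.47 to 39.7). The gene cyp2aa4 had 41 and 11 (3.73-fold lower), cyp2aa3 had 29 and 10 (2.90-fold lower), and cyp2aa2 had 44 and 18 (2.44-fold lower, 95% interval 1.53 to 4.01). These 4 genes had few reads, and their intervals are wide. Each summed to under 100, a range in which 10.1% of all tested genes were at least 2-fold lower.

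The gene model ENSDARG00000102805, which the file calls cyp2aa11 and the name table cyp2aa12, rested on more reads, with 360 and 152 (2.37-fold lower, 95% interval 2.04 to 2.76). The other model called cyp2aa11, ENSDARG00000103456, had 12 and 20, with an interval that included equality (ratio 1.67, 0.866 to 3.37). The most abundant model of the array by read count, cyp2aa1, had 545 and 357, a ratio of 0.66. The gene cyp2aa7 had 282 and 255, with an interval that included equality. The span of cyp2aa8 covers cyp2aa4, nearly all of cyp2aa7 and the cyp2aa11 model ENSDARG00000103456 on the same strand. The assignment of reads in such overlaps is not known from the labels, so the values of these 4 genes are uncertain.

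On chromosome 20 (25515259 to 25615802), 11 genes of subfamilies n, ad, v, p and j formed an array. A ratio below 1 was found for 10 of them, against 56.4% of all tested genes. At least 2-fold lower were 2 (18.2%), against 4.36% of all tested genes. The reference table lists older names of subfamily 2j for 9 of the 11 genes, and human CYP2J2, of that subfamily, converts arachidonic acid to epoxides. The gene cyp2ad2 (ENSDARG00000021172, 25534669 to 25542183, minus strand) had 294 and 41 normalized reads, 7.17-fold lower (95% interval 5.53 to 9.43). The gene cyp2n13 (ENSDARG00000042953, 25515259 to 25522911, minus strand) had 917 and 237, 3.87-fold lower (3.46 to 4.33). Both intervals lay well clear of equality.

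Their neighbours on that strand were closer to equality. The gene cyp2ad3 had 1632 and 843, 1.94-fold lower (1.81 to 2.07), and cyp2ad6 had 102 and 69, a ratio of 0.68. The plus strand gene cyp2v1, which overlaps all 3 cyp2ad genes on the opposite strand, had 533 and 522. The library kit keeps the strand, but the labels do not say that counting used it.

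All 5 cyp2p genes, relatives of killifish enzymes that oxidize arachidonic acid, had a ratio below 1 and none was past the line. Of all tested genes, 56.4% had a ratio below 1. The gene cyp2p6 was lowest in ratio, with 293 and 157 (ratio 0.54, 95% interval 0.458 to 0.626). The genes cyp2p9, with 228 and 145, and cyp2p8, with 324 and 223, also had intervals that left out equality. Those of cyp2p7, with 73 and 63, and cyp2p10, with 93 and 84, included it. The gene cyp2j20, at the end of the array, had 51 and 54. The annotated span of cyp2p7 covers cyp2p8, cyp2p9 and cyp2p10 and nearly all of cyp2j20 on the same strand, so their values carry the same doubt as in the cyp2aa array.

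**Figure D3:**
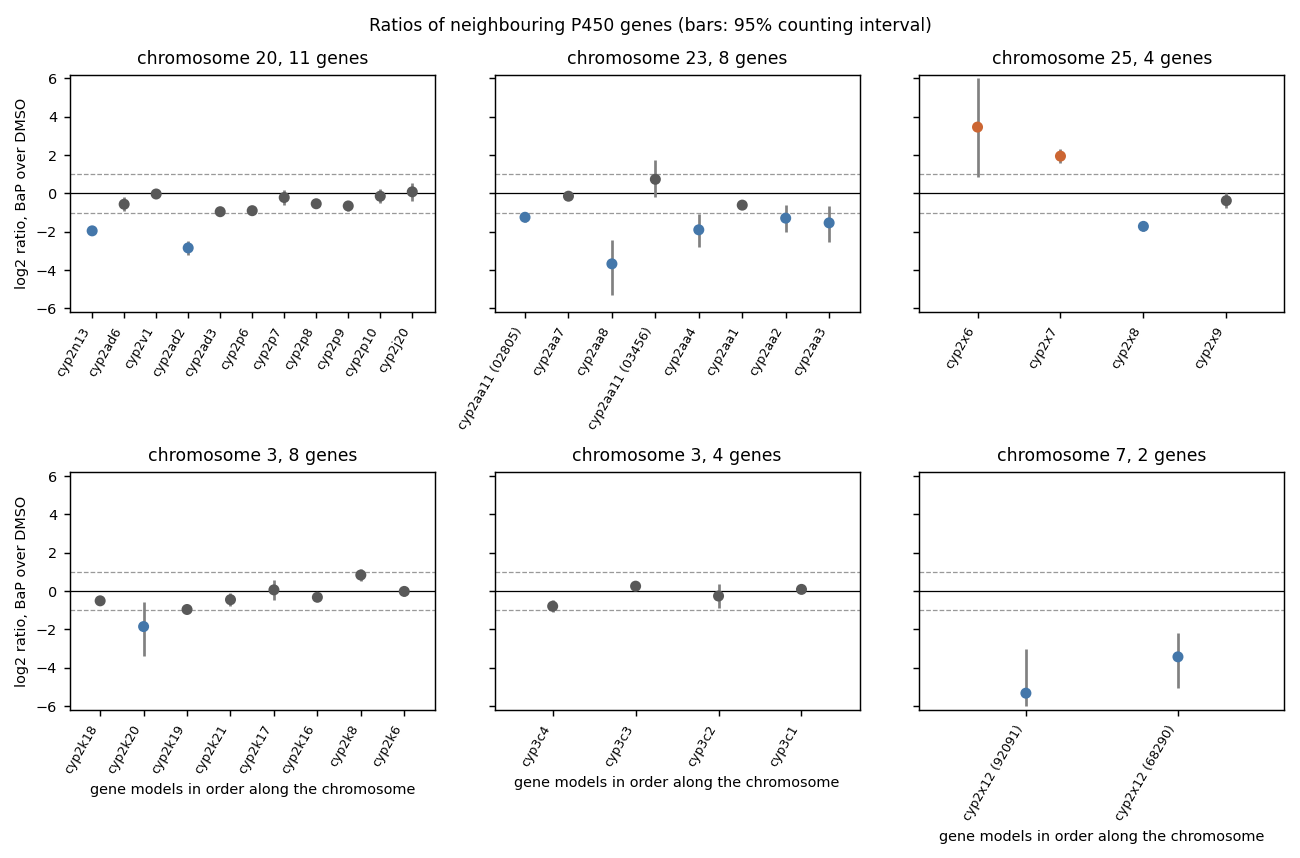
Log2 ratio of BaP over DMSO for the 37 genes that lie within 100 kb of another, in order along each of the 6 stretches, with 95% counting intervals (bars, drawn no farther than 6 from 0) and dashed lines at 2-fold. Genes past the line are coloured; on chromosome 25 cyp2x6 and cyp2x7 lie above it and cyp2x8 below it.

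The 7 cyp2x genes held both genes that were at least 2-fold higher and 3 that were at least 2-fold lower. These were 28.6% and 42.9% of the 7, against 3.75% and 4.36% of all tested genes. On chromosome 25 the gene cyp2x7 (ENSDARG00000044002, 17372290 to 17378881, minus strand) had 59 and 227 normalized reads, 3.85-fold higher (95% interval 3.02 to 4.96). The next gene on the same strand, cyp2x8 (ENSDARG00000043997, 17386763 to 17395315), 7.88 kb away, had 329 and 100, 3.29-fold lower (2.75 to 3.95). These adjacent genes thus differed from equality in opposite directions, each with an interval that left it out.

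On the other side of cyp2x7 lies cyp2x6, with 1 and 11, a ratio of 11.0 whose interval is very wide (1.78 to 2962). The gene cyp2x9 had 87 and 67, with an interval that just included equality. The 2 gene models called cyp2x12 lie 1.36 kb apart on chromosome 7, and both were lower. The name table calls neither of them cyp2x12. The model ENSDARG00000092091 had 40 and 1 (40.0-fold lower, 95% interval 8.24 to 4295), and ENSDARG00000068290 had 43 and 4 (10.8-fold lower, 4.56 to 33.7). Both models summed to under 100, a range in which 10.1% of all tested genes were at least 2-fold lower. The gene cyp2x10.2, also on chromosome 7, had 10 and 7, with an interval that included equality. Genes of a subfamily are alike in sequence, and the labels do not say how reads matching more than 1 of them were counted.

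The 8 cyp2k genes, from an array on chromosome 3 (12710350 to 12826387), were mostly nearer to equality, with a median log2 ratio of -0.38. At least 2-fold lower was 1 gene (12.5%, against 4.36% of all tested genes). That gene, cyp2k20, had 18 and 5 (3.60-fold lower, 95% interval 1.49 to 10.3). Its values summed to under 100, a range in which 10.1% of all tested genes were at least 2-fold lower. The gene cyp2k19 had 470 and 242, 1.94-fold lower (1.72 to 2.20). Somewhat lower were cyp2k18, with 548 and 386, cyp2k21, with 124 and 91, and cyp2k16, with 502 and 402, all with intervals that left out equality.

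The gene cyp2k8 was higher, with 86 and 154 normalized reads (ratio 1.79, 1.43 to 2.25), short of 2-fold. The genes cyp2k6, whose zebrafish enzyme is known to activate the mold toxin aflatoxin B1, and cyp2k17 were close to equality, with 193 and 191 and with 43 and 45.

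Of the 4 genes of family 2 outside subfamilies described so far, none was past the line. The gene cyp2u1, whose human counterpart hydroxylates long-chain fatty acids, had 333 and 173 (1.92-fold lower, 95% interval 1.66 to 2.23). The gene cyp2y3 had 41 and 22, and cyp2ae1 had 182 and 140, both with intervals below equality. The value of cyp2y3 is uncertain, because another gene model overlaps it on the same strand. The name table gives cyp2y3 another symbol. The gene cyp2r1, which encodes a vitamin D 25-hydroxylase, had 32 and 34, with an interval from 0.695 to 1.64.

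Family 4 had 1 of 4 genes at least 2-fold lower (25%, against 4.36% of all tested genes) and 0 at least 2-fold higher. The gene cyp4v8 (ENSDARG00000062132, chromosome 1, 17900306 to 17912645, plus strand) had 880 and 273 normalized reads, 3.22-fold lower (95% interval 2.90 to 3.59). The gene cyp4v7 had 529 and 368 (ratio 0.70, 0.625 to 0.774), and another gene model overlaps its span by 0.799 kb on the same strand. The name table gives both the symbol CYP4V2, that of a human fatty acid hydroxylase whose loss causes a crystalline dystrophy of the retina. The gene cyp4t8 had 589 and 614, and cyp4f3, of the subfamily of the human leukotriene B4 hydroxylase, had 16 and 14, both with intervals that included equality.

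Genes of P450 oxidoreductase and cytochrome b5 were higher in the BaP library, and those of cytochrome b5 reductase were not. Of 13 genes measured from a list of 14 electron donors and microsomal partners, 4 were at least 2-fold higher, against 3.75% of all tested genes, and 0 at least 2-fold lower (median log2 ratio 0.14). Both NADPH-P450 oxidoreductase genes were higher, porb with 1038 and 3613 (ratio 3.48, 95% interval 3.29 to 3.68) and pora with 635 and 1447 (ratio 2.28). The cytochrome b5 genes cyb5a, with 429 and 2464 (ratio 5.74, 5.28 to 6.26), and cyb5b, with 119 and 271 (ratio 2.28), were also higher. Of the cytochrome b5 reductase genes, cyb5r3 was below equality, with 379 and 281 (ratio 0.74), and cyb5r1, with 202 and 184, cyb5r2, with 60 and 66, and cyb5r4, with 130 and 142, had intervals that included it. The gene of the mitochondrial donor ferredoxin, fdx1, had 378 and 606, and that of its reductase, fdxr, had 193 and 149. Mitochondrial donors serve P450 enzymes of other families.

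The 29 genes of the other P450 families were taken by symbols starting with cyp, so P450 genes with other symbols are not among them. Their median log2 ratio was 0.21, with 4 at least 2-fold higher and 4 lower, against 3.75% and 4.36% of all tested genes. At equal library totals 6 were higher and 3 lower, against 5.15% and 2.97% of all tested genes. Under each other scaling tried, 6 were higher and 4 lower, against 4.1% and 3.6% of all tested genes. The higher genes were cyp1a, with 650 and 17859, cyp1b1, with 37 and 842, cyp1c2, with 69 and 551, and the retinoid desaturase gene cyp27c1, with 30 and 148. The lower genes were cyp7a1, with 1233 and 419, and cyp8b1, with 255 and 102, both of bile acid synthesis, the steroidogenic gene cyp17a1, with 51 and 24, and cyp8b2, with 10 and 4 and an interval that included equality. Of the lower genes, cyp17a1 and cyp8b2 summed to under 100, a range in which 10.1% of all tested genes were at least 2-fold lower. Both cyp7a1 and cyp8b1 summed to 100 or more, where that share was 2.43%. Leaving out family 1, 1 of 25 genes was at least 2-fold higher and 4 were lower (16%, against 4.36% of all tested genes). Their median was 0.20, again above that of families 2, 3 and 4, and the difference between the groups was not tested.

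Regulators known to act on P450 genes were past 2-fold about as often as all tested genes (3.75% higher, 4.36% lower). Of 31 genes of nuclear receptors and liver factors, 1 was at least 2-fold higher and 1 lower, with a median log2 ratio of -0.09. The higher gene was cebpb, for a C/EBP factor of the acute phase response, with 795 and 1621. The lower was nr0b2a, for the corepressor SHP, with 686 and 278. The gene nr1i2, for the pregnane X receptor that in mammals activates family 2 and 3 genes, had 304 and 385 (ratio 1.27), and hnf4a had 750 and 567 (ratio 0.76). Both were singled out with their values known.

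Of 17 epoxide hydrolase and eicosanoid genes, 3 were at least 2-fold higher and 0 lower (median log2 ratio 0.29), against 3.75% and 4.36% of all tested genes. The gene ptgs2b, with 195 and 389, passed 2-fold under each of the 3 other scalings. The 3 were the cyclooxygenase gene ptgs2a, with 401 and 817, the prostacyclin synthase gene ptgis, with 74 and 165, and ptgesl, with 219 and 546. The epoxide hydrolase gene ephx1, whose product opens epoxides such as those formed from BaP, had 179 and 292 (ratio 1.63, 95% interval 1.40 to 1.91), and was singled out with its values known.

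Markers of the liver and the intestine, the main sites of P450 genes of families 2 and 3, were lower too. Of 24 hepatocyte markers 23 had a ratio below 1, 10 were at least 2-fold lower and 0 higher, and the median log2 ratio was -0.88. Of all tested genes, 56.4% had a ratio below 1 and 4.36% were at least 2-fold lower. Their summed value was 128723 and 78788, 1.63-fold lower, and none was listed at 0. The 10 were ahsg2, with 544 and 33, hpx, with 33 and 3, ahsg1, with 566 and 90, uox, with 2484 and 830, tfa, with 7282 and 2499, hpda, with 4294 and 1633, c9, with 1898 and 810, c3a.1, with 6104 and 2820, ttr, with 1111 and 516, and apoa2, with 14920 and 7025. The liver fatty acid-binding protein gene fabp10a was the exception, with 8255 and 8416.

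Of 18 enterocyte markers 16 had a ratio below 1, 5 were at least 2-fold lower and 1 higher (median -0.83), against 56.4%, 4.36% and 3.75% of all tested genes. Their sum was 75529 and 45953, 1.64-fold lower, and none was listed at 0. The lower genes were chia.3, with 541 and 63, rbp2a, with 3549 and 1038, fabp1b.1, with 2759 and 923, fabp2, with 5785 and 2014, and mep1b, with 366 and 128. The peptidase gene anpepb was higher, with 2048 and 4497. Of 12 kidney tubule markers 9 had a ratio below 1, 0 were at least 2-fold lower and 1 higher, slc22a7a with 73 and 157 (median -0.21), and their sum was 9433 and 9185. The sums of the hepatocyte and enterocyte markers differed by about as much as that of the 47 P450 genes, which was 1.64-fold lower with cyp3a65 and 1.45-fold lower without it. The marker sums also rest on genes with high values. The largest were apobb.1 among the hepatocyte markers, with 37909 and 23209, and chia.2 among the enterocyte markers, with 28487 and 15477. The median log2 ratios were -0.88 and -0.83 for the markers and -0.52 for the P450 genes, and the part of these tissues in the P450 values was not tested.

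**Figure D4:**
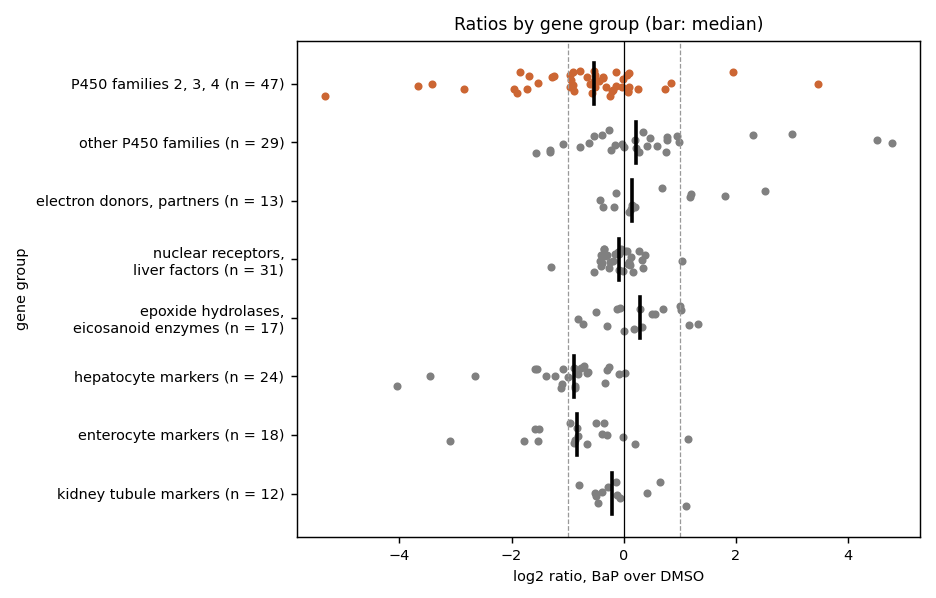
Log2 ratio of BaP over DMSO for each gene (points, spread vertically at random) in the P450 families 2, 3 and 4 and in 7 other gene groups, with the median as a bar and dashed lines at 2-fold. The medians of the P450 group (-0.52), the hepatocyte markers (-0.88) and the enterocyte markers (-0.83) lie left of 0. Those of the kidney tubule markers (-0.21) and the regulators (-0.09) also lie left of 0, closer to it. Right of 0 lie those of the other P450 families (0.21), the electron donors (0.14), and the epoxide hydrolase and eicosanoid genes (0.29).

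None of the genes past the 2-fold line had a KEGG pathway annotation, so a shared pathway could not be looked for. The file gives a KEGG term for 10 of the 47 genes, and 0 of these 10 were past the line. The 8 genes annotated to arachidonic acid metabolism had a median log2 ratio of -0.38. All 14 genes past the line were among the 37 without a term, so the annotation names no substrate for them.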

How the data were processed

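Whole-larva RNA was sequenced as stranded mRNA libraries, with 200 ng of RNA from 4 pooled biological replicates in each of 2 libraries, per the labels' protocols. The submitters' processing notes give the genome build as danRer11 and as GRCz11. They name the tools featureCounts 1.6.3, STAR 2.6.1d and Trimmomatic 0.38, without saying what each did. Coordinates are those of the file, which names no build. Its 2 columns hold a score that the authors deposited, a normalized read count rounded to whole numbers, whose scaling and filters the labels do not state. The plan for whole reads therefore gave way to ratios of the values.

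Low values recur at the frequencies that whole reads times a constant would give after rounding. The likeliest constants were 0.6788 (DMSO) and 0.544 (BaP), which gave about 19804453 and 22000110 reads. On simulated data the constant was recovered for scaled columns and not for an unscaled one, so the estimate presumes scaling. Gene models with a sum of at least 10 entered, and a 0 was set to 3 reads in the ratio. A gene was past the line at 2-fold. Intervals are 95% Clopper-Pearson intervals on the estimated reads, conditional on their sum and widened by the rounding. They cover counting error only, and copies of 1 molecule count as separate reads.

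The P450 genes and all lists were chosen with earlier results of these data known. All 47 genes were named, and of each list every gene past 2-fold. All 47 IDs were in the name table, which gives 6 of them another symbol. Transcript lengths were not used here. Highest values, sums and shares over genes are therefore of normalized read counts, and do not compare transcript levels between genes. Proteins and promoters, planned for comparison, were not analysed here. Other scalings, pseudocounts, folds and filters were tried, and, chosen after seeing the data, leaving out cyp3a65 or genes overlapping another on the same strand. Scripts ran in Python 3.11.15 with scipy 1.17.1, numpy 2.4.6, matplotlib 3.10.9 and pandas 2.3.3.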

Additional observations from a re-analysis of the deposited data

How the results depend on the processing

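No paired analysis was possible because each treatment has 1 library. Of the 47 genes, 12 at least 2-fold lower were counted under every scaling and pseudocount tried, and 8 with a sum of at least 50. At 1.5-fold 21 were lower and 4 higher, and at 3-fold 9 and 2. With a sum of at least 20 or of at least 50, 1 gene was higher, cyp2x7, since cyp2x6 left the set. The summed ratio of 0.61 became 0.69 at equal totals, 0.64 by the median of gene ratios, 0.64 by the trimmed mean of M values and 0.69 without cyp3a65. Equal totals raised the log2 ratio of every gene by 0.17, which put the median of all tested genes at 0.10 and that of the P450 genes at -0.36, still 12 lower and then 3 higher, against 2.97% and 5.15% of all tested genes. Under scalings cyp2aa7, cyp2k6, cyp2p10 and cyp2v1 changed side of equality, all 4 with intervals that included it. Without genes overlapping another on the same strand, 10 of 36 were lower and 2 higher. The share of all tested genes was not computed for the other folds, minimum sums and pseudocounts, or without overlapping genes. How far those counts exceed it is therefore not known. Taking the values themselves as reads, the intervals of 32 in place of 33 genes left out equality. At equal totals 7 in place of 10 hepatocyte markers were past 2-fold, and 13 in place of 19 regulators had a ratio below 1. Of the 12 kidney tubule markers, 6 in place of 9 then had a ratio below 1, with a median log2 ratio of -0.05. Of all tested genes, 37.8% had a ratio below 1 at equal totals.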
